A study of Rattus norvegicus with 10 samples.

Results

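Transcripts of 7 pancreatic digestive enzymes were followed in the livers of female Harlan Sprague-Dawley rats. The genes are Cpa1, Cpb1, Prss1, Ctrb1, Cel, Pnlip and Cela1, and each is represented by 1 probe set among the 31042 on the array, so that the 7 probe sets stand for 7 of the 14217 genes measured. The set was chosen by the low Cpa1 value in livers of dosed rats in these same arrays, and the other 6 enzymes were added as companions of Cpa1 in pancreatic juice. The difference of the members between dosed and vehicle livers is therefore given as a description, with no test. One group was given indole-3-carbinol (I3C), which forms when cabbage and related vegetables are cut or chewed, at 300 mg per kg in corn oil by gavage on 5 days per week, and the other corn oil alone (vehicle, 0 mg per kg), with 13 weeks of dosing in both groups per the labels. The series' design text speaks of a 2-year study. The age of the rats was not stated in the labels. Each group has 5 samples of liver RNA on 1 array each, and nothing in the labels says which animals they came from, so p-values measure only the spread between these samples. Values are log2 expression from RMA (robust multi-array averaging), which combines the probes of a set into 1 value per array. The question was whether the other enzymes follow Cpa1 in level and from array to array, as RNA carried over from pancreatic tissue would.

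In the pancreas these enzymes are made by acinar cells, stored in granules and released together into the gut. The proteases among them are stored as inactive precursors, which trypsin activates in the gut. Cpa1 (carboxypeptidase A1) and Cpb1 (carboxypeptidase B1) trim amino acids from the carboxyl end of peptides, the former mainly aromatic and aliphatic residues and the latter lysine and arginine. Prss1 is a trypsin, Ctrb1 a chymotrypsin and Cela1 an elastase, all serine proteases, while Pnlip splits dietary triglycerides and Cel is the lipase that needs bile salts. Their genes are known as targets of PTF1, the acinar transcription factor complex that holds Ptf1a and Rbpjl and binds a 2-part element of an E-box and a TC-box. The members lie on chromosomes 1, 2, 3, 4, 7 and 19, with Cpa1 and Prss1 both on chromosome 4.

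The 250 bases before the RefSeq gene start (assembly GRCr8), 5′ to 3′ on the gene's strand, are shown for Cpa1, the one bright member, for Cpb1, the other carboxypeptidase, for Cela1, the one member with a higher mean of over 0.4 after the dose, and for Ctrb1, a dim member that has the same joined element as Cela1. Capitals mark matches on either strand to CACCTG (the E-box), TTTCCC (the TC-box), TATAAA (the TATA box) and GCGTG (the core of the element bound by the aryl hydrocarbon receptor), and none of the marked matches overlap. The windows are chr4:60224551-60224800 on the plus strand and chr2:104714663-104714912, chr7:133665062-133665311 and chr19:56566979-56567228 on the minus strand.
Cpa1: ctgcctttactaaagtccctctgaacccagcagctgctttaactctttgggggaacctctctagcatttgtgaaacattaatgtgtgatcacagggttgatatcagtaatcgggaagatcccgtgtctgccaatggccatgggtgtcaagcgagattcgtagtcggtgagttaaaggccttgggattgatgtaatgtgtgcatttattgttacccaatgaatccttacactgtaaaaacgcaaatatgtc
Cpb1: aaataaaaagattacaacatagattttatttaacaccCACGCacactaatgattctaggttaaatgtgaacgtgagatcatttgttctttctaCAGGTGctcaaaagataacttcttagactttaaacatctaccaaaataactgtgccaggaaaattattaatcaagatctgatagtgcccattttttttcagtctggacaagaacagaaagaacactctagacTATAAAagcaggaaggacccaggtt
Cela1: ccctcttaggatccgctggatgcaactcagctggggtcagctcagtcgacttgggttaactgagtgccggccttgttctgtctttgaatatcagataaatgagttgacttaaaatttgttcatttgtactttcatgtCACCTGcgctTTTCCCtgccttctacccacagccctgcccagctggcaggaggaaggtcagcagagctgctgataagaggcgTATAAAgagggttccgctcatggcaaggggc
Ctrb1: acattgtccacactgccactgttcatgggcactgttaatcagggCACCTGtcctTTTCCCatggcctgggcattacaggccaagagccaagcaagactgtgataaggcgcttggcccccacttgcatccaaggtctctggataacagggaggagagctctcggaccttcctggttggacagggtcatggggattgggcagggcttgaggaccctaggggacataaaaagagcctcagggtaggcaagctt

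In the Cela1 and Ctrb1 windows CACCTG is followed after 4 bases by TTTCCC, which begins 103 bases before the start in Cela1 and 196 bases before it in Ctrb1. This joined pair occurs in 8 of 33469 RefSeq windows of the same length (0.0239%), 2 of them those of members. The spacing counted is the one present in these member windows and no other spacing was counted, so no enrichment is read from this share. Taken singly, CACCTG lies in the windows of 5 of the 7 members (15.9% of all windows), TTTCCC in 5 (7353 of the 33469 windows), TATAAA in 4 (12.9%) and GCGTG in 2, Cpb1 and Cel (25.9%). The Cpa1 window holds 0 matches to any of the 4 motifs, which says only that these letters are not in this window.

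Cpa1 was the only member of the 7 with a bright signal in vehicle livers. Its 5 vehicle arrays read 11.83, 10.96, 11.28, 11.92 and 11.72, and its 5 I3C arrays 8.86, 8.71, 9.99, 10.17 and 9.47. All 5 I3C arrays lay below every vehicle array, with a gap of 0.80 between the lowest vehicle and the highest I3C value. The group means were 11.54 ± 0.41 (SD, n = 5) and 9.44 ± 0.65 (SD, n = 5), a difference of -2.10 ± 0.28 (SE from the fit over all probe sets), or a 4.30-fold lower signal after the dose. Of the 14217 genes 7, Cpa1 included, had a difference this low. Among I3C arrays 1 and 2 were the lowest and 3 and 4 the highest, and the I3C range of 1.46 was wider than the vehicle range of 0.96. The Cpa1 signal of dosed livers was still brighter than 89.7% of probe sets, against 97.6% in vehicle livers. In RNA of whole liver, fewer cells of a type and less RNA per cell cannot be told apart.

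**Figure D1:**
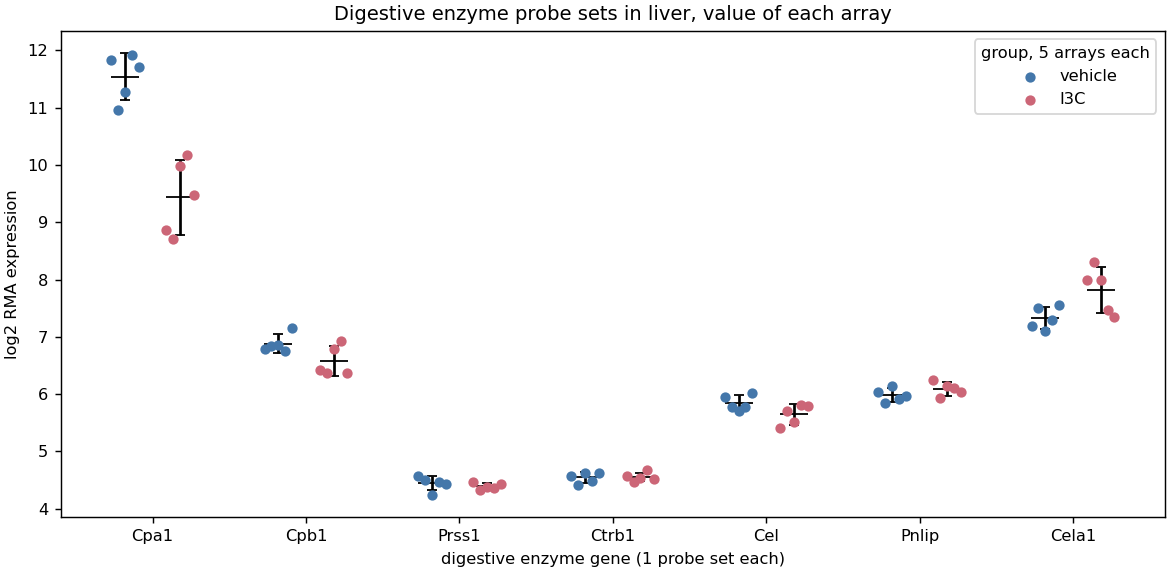
Log2 RMA expression of the 7 digestive enzyme probe sets. Each point is 1 array, 5 vehicle (blue) and 5 I3C (red), and the bars give the group mean and SD; only the Cpa1 groups are apart, at 11.54 and 9.44.

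The second carboxypeptidase was much dimmer and its groups overlapped. Cpb1 read 6.79, 6.84, 6.86, 6.75 and 7.16 in vehicle livers and 6.42, 6.37, 6.80, 6.94 and 6.38 in I3C livers. I3C arrays 1, 2 and 5 lay below all vehicle arrays, whereas 3 and 4, the arrays with the highest Cpa1 among the dosed, lay within the vehicle range. The means were 6.88 ± 0.16 (SD, n = 5) and 6.58 ± 0.27 (SD, n = 5), a difference of -0.30 ± 0.12 (SE). Vehicle 5, at 7.16, stood above the other vehicle arrays.

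Among the serine proteases, trypsin and chymotrypsin were at the dim end of the array. Prss1 lay between 4.25 and 4.57 in vehicle livers and between 4.34 and 4.46 in I3C livers, with medians of 4.46 and 4.38, and its difference was -0.05 ± 0.07 (SE). Ctrb1 lay between 4.42 and 4.63 in vehicle livers and between 4.47 and 4.67 in I3C livers, with medians of 4.57 and 4.54, and its difference was 0.01 ± 0.07 (SE). Their probe sets were brighter than only 15.97% and 18.7% of all probe sets. The groups of both genes overlapped throughout.

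Elastase went the other way from Cpa1. Cela1 read 7.20, 7.50, 7.10, 7.30 and 7.55 in vehicle livers and 7.997, 8.31, 7.996, 7.48 and 7.34 in I3C livers. I3C arrays 1, 2 and 3 lay above all vehicle arrays, and I3C arrays 4 and 5 lay within the vehicle range. The means were 7.33 ± 0.19 (SD, n = 5) and 7.82 ± 0.40 (SD, n = 5), a difference of 0.50 ± 0.17 (SE).

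Both lipases were near the middle of the array. Cel, the bile salt-dependent lipase, read 5.95, 5.78, 5.71, 5.78 and 6.02 in vehicle livers and 5.40, 5.71, 5.52, 5.82 and 5.80 in I3C livers, a difference of -0.20 ± 0.10 (SE), and I3C arrays 1 and 3 were below the vehicle range. Pnlip, the pancreatic triglyceride lipase, lay between 5.84 and 6.15 in vehicle livers and between 5.93 and 6.24 in I3C livers, a difference of 0.11 ± 0.08 (SE). The groups of both overlapped.

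In all, 1 of the 7 members was lower in every I3C array than in every vehicle array, and 0 were higher in this sense. Over all genes 4.07% were lower and 4.61% higher without overlap. Since the contrast served to choose Cpa1, nothing is read from this count. The median difference over the 7 was -0.05, beside 0.00 over all genes. Cela1, Cpb1, Pnlip and Cel fill the ranks after Cpa1 by brightness, between the 41.3rd and 70.5th percentiles of probe sets, and 4 of the 7 members were below the median probe set. Probe sets bind with different strengths, so these ranks do not order the transcripts by abundance.

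A measure of RNA quality was apart between the groups as well. For the GAPDH controls, the signal of the 3′ probe set minus that of the 5′ one ran from 0.32 to 0.65 in vehicle arrays and from 0.16 to 0.29 in I3C arrays. For the beta-actin controls the groups overlapped, at 1.449 to 1.737 in vehicle arrays and 1.175 to 1.532 in I3C arrays. With the GAPDH difference in the model as a covariate Cpa1 differed by -2.03 ± 0.48 (SE), Cpb1 by -0.20 ± 0.20, Cel by -0.08 ± 0.15 and Cela1 by 0.78 ± 0.27. The groups do not overlap in the GAPDH measure, so its part and that of the dose cannot be told apart. The SE of each member was larger with it (for Cpa1 0.48 against 0.28), and calls that end with this covariate carry that limit. Its part in the differences was not tested further. Vehicle 5 was far from the other vehicle arrays in several genes named here, and without it Cpa1 differed by -2.06.

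None of the measured further pancreatic enzymes passed the test. Of 22 genes listed under further digestive enzymes, 14 were measured, and 0 rose and 0 fell in limma. This is a linear model fitted to all 31042 probe sets, with Benjamini-Hochberg adjustment at a threshold of 0.05. Over all genes 3.32% rose and 3.11% fell at this adjusted threshold. With shares this small, a count of 0 among 14 genes is near that of genes at large, so nothing is read from it. At an unadjusted p under 0.05 the count was also 0. The share of all genes there is not given, so nothing is read from that count either. The differences of the 14 ran from -0.15 to 0.14, with a median of 0.01. Amy1, which is in the list, is an amylase gene other than that of the pancreatic amylase, Amy2a3. It was the bright one at 12.82 ± 0.08 (SD, n = 5) in vehicle livers and 12.68 ± 0.16 (SD, n = 5) in I3C livers. Its difference was -0.14 ± 0.08 (SE, limma adjusted p = 0.466). Its vehicle arrays ran from 12.69 to 12.90 and its I3C arrays from 12.48 to 12.90, so that the groups overlapped. Ctrl, a chymotrypsin-like protease, came next at 6.36 ± 0.19 (SD, n = 5) and 6.30 ± 0.17 (SD, n = 5), a difference of -0.05 ± 0.11 (SE, limma adjusted p = 0.891).

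The 13 measured genes of this list other than Amy1 had means between 3.54 and 6.33, no brighter than the 51.4th percentile. Among them are Prss2, Prss3, Ctrc, Cela2a, Cela3b, Clps, Pla2g1b, Pnliprp1, Pnliprp2 and the pancreatic amylase Amy2a3, which are abundant products of the rat pancreas. Amy2a3 was at the 1.71st percentile. Summed on the linear scale, these 13 came to between 346 and 443 units in vehicle arrays and between 363 and 419 in I3C arrays, so that the groups overlapped. Of the 14 measured genes of the list 12 were below the median probe set, and no detection calls were used. The sums may therefore be largely background, and their overlap says little about small amounts of pancreatic RNA. The same limit holds for the sums of the other acinar products and the islet genes below.

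Of 17 other acinar products and receptors 15 were measured, and 0 passed limma in either direction, nor did any at an unadjusted p under 0.05. As for the enzymes, nothing is read from either count. Their differences ran from -0.11 to 0.14 and their summed linear signal from 574 to 666 in vehicle and from 580 to 665 in I3C arrays. The brightest were Aqp12a, a water channel of acinar cells, at 7.25 ± 0.08 and 7.26 ± 0.10 (SD, n = 5 each), and Cuzd1, a zymogen granule protein, at 6.05 ± 0.06 and 6.02 ± 0.09 (SD, n = 5 each). Sycn and Gp2, further proteins of the zymogen granule, and Spink1, the trypsin inhibitor stored with trypsin, were in the same list.

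**Figure D2:**
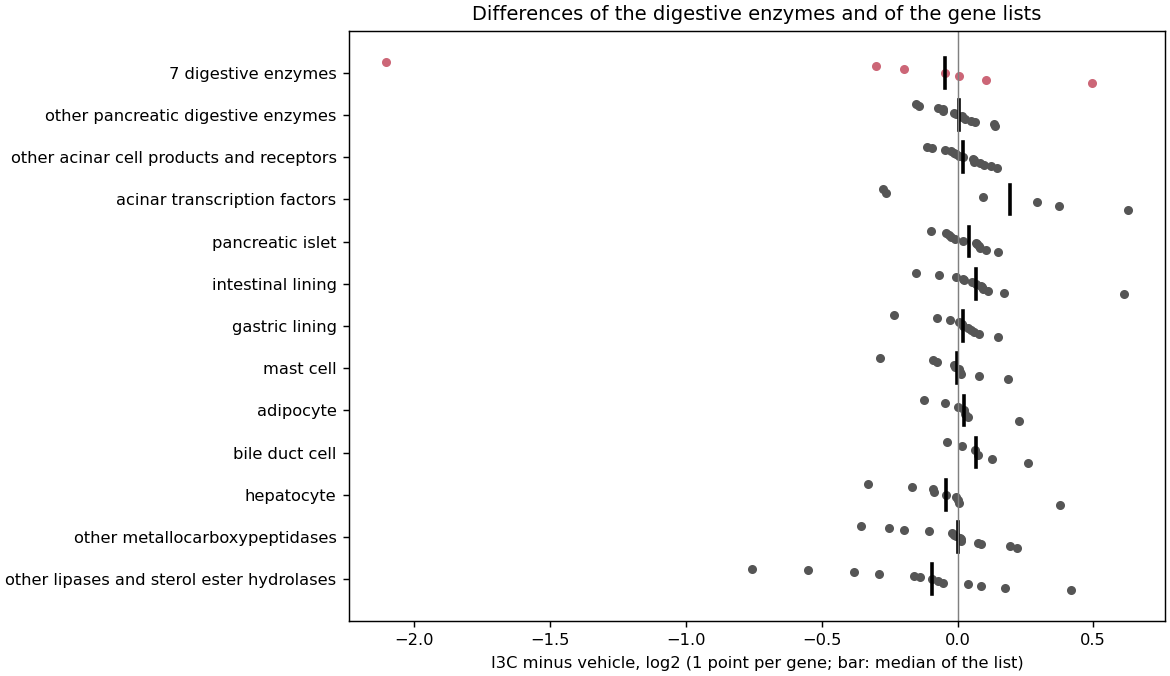
Difference between I3C and vehicle livers (log2) of the 7 digestive enzymes (red) and of each gene of 12 gene lists (grey), with the median of each list as a bar. Cpa1 stands alone at -2.10, while the further pancreatic enzymes lie between -0.15 and 0.14.

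Of 7 acinar transcription factors 6 were measured and 0 passed limma, while without adjustment 3 were higher and 1 lower at p under 0.05. The share of all genes at that unadjusted threshold is not given here, so nothing is read from these counts. Nr5a2, which is also a regulator of hepatocytes, was 9.61 ± 0.20 in vehicle and 9.98 ± 0.15 in I3C livers (SD, n = 5 each), a difference of 0.37 ± 0.10 (SE, limma adjusted p = 0.0616), and its groups did not overlap. Gata4 differed by -0.26 ± 0.12 (SE, limma adjusted p = 0.333) and was not among those under 0.05 without adjustment. The lower gene there was Gata6, which differed by -0.27 ± 0.10 (SE, limma adjusted p = 0.181). Foxp2, higher there beside Nr5a2 and Bhlha15, differed by 0.29 ± 0.09 (SE, limma adjusted p = 0.112). Bhlha15 (Mist1) drives the secretory form of the acinar cell. It was picked for mention because of its value, and differed by 0.63 ± 0.18 (SE, limma adjusted p = 0.0743). Ptf1a, whose complex switches on the digestive enzyme genes, had a dim probe set (34.9th percentile) and differed by 0.09 ± 0.12 (SE, limma adjusted p = 0.811). The count of 0 became 1 without I3C 3, vehicle 4 or vehicle 5, 1 with dim probe sets left out or quantile normalization repeated, and 2 with array weights.

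Markers of other tissues that lie near the liver or hold related proteases were read in the same way. Of 12 islet genes measured 0 passed, and apart from Ttr, the thyroid hormone carrier that hepatocytes also make (14.54 ± 0.04 and 14.50 ± 0.03, SD, n = 5 each), their summed linear signal was 426 to 515 in vehicle and 430 to 507 in I3C arrays. Ins1, an insulin gene, was 6.72 ± 0.10 and 6.79 ± 0.23 (SD, n = 5 each). Of 11 gastric, 10 mast cell, 7 adipocyte and 6 bile duct genes measured 0 passed. At an unadjusted p under 0.05, 1 adipocyte gene, the lipid droplet protein Cidec, was higher. The share of all genes there is not given, so nothing is read from that count. The 2 brightest gastric genes were Cblif, the intrinsic factor that binds vitamin B12 (difference 0.15), and Tff1, a mucosal peptide (0.01). Those of the mast cell list were Hdc, which makes histamine (-0.29), and the tryptase Tpsb2 (0.18), and Cpa3, the mast cell carboxypeptidase, differed by 0.01. Cidec differed by 0.22, the adipocyte complement factor Cfd by 0.03, and the bile duct genes Epcam, an adhesion molecule, by 0.26 and Spp1, osteopontin, by 0.13. Their summed linear signal ran from 560 to 729 (gastric), 439 to 628 (mast cell), 1389 to 1723 (adipocyte) and 484 to 611 (bile duct) in vehicle arrays, and from 590 to 669, 458 to 552, 1643 to 1876 and 512 to 694 in I3C arrays.

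Of 13 intestinal genes 1 rose and 0 fell. Fabp2, the intestinal fatty acid-binding protein, rose by 0.61 ± 0.15 (SE, limma adjusted p = 0.0363), from 6.58 ± 0.38 to 7.19 ± 0.13 (SD, n = 5 each). Its groups overlapped, and the call ended when I3C 1, 2, 3 or 5 or vehicle 1, 2 or 4 was removed (adjusted p from 0.0774 to 0.0909). Apoa4, an apolipoprotein that rat liver also makes, differed by 0.06 ± 0.14 (SE, limma adjusted p = 0.921) and Tff3, a mucosal peptide, by -0.15 ± 0.12 (SE, limma adjusted p = 0.614). Without Apoa4 the intestinal list summed to 655 to 902 units in vehicle and 725 to 821 in I3C arrays.

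The labelled tissue was checked with 9 hepatocyte genes, all of which were brighter than 99.7% of probe sets. Apoa1, the main protein of high-density lipoprotein, rose by 0.38 ± 0.07 (SE, limma adjusted p = 0.00883) and the P450 enzyme Cyp2e1 fell by 0.33 ± 0.06 (SE, limma adjusted p = 0.00689), and the other 7 did not pass. Both calls ended with the GAPDH covariate, at an adjusted p of 0.126 and 0.123.

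The list of metallocarboxypeptidases and related proteins holds enzymes of plasma, secretory granules and lysosome. Of its 14 measured genes 0 passed limma, while without adjustment 1 was higher and 2 were lower at p under 0.05, with differences from -0.36 to 0.22. Here too the share of all genes at the unadjusted threshold is not given, so nothing is read from the unadjusted counts. Cpb2, a plasma carboxypeptidase made in liver that slows the breakdown of fibrin, was 12.58 ± 0.09 and 12.80 ± 0.07 (SD, n = 5 each), a difference of 0.22 ± 0.07 (SE, limma adjusted p = 0.0783). Cpn1, the plasma enzyme that inactivates kinins and anaphylatoxins, was 11.44 ± 0.05 and 11.24 ± 0.08 (SD, n = 5 each), a difference of -0.20 ± 0.06 (SE, limma adjusted p = 0.0901). For both the groups did not overlap. The count of 0 became 1 without vehicle 4, with arrays centred on their medians or with an intensity trend in the variance, and 2 with dim probe sets left out.

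Of 13 other lipases and ester hydrolases 1 rose and 2 fell. Lipc, the hepatic lipase that acts on lipoproteins, read 12.73, 12.62, 12.52, 12.74 and 12.66 in vehicle livers and 11.72, 12.05, 12.07, 11.86 and 11.80 in I3C livers, and fell by 0.76 ± 0.08 (SE, limma adjusted p = 0.000191) with no overlap. Aadac, an esterase of the hepatic endoplasmic reticulum, fell by 0.55 ± 0.12 (SE, limma adjusted p = 0.0167), and vehicle 5 lay below the highest I3C array. Pnpla2, the triglyceride lipase of lipid droplets, rose by 0.42 ± 0.11 (SE, limma adjusted p = 0.0495). Its call ended without I3C 1, 2, 4 or 5 or vehicle 1, 3, 4 or 5, with adjusted p between 0.062 and 0.126, and with the GAPDH covariate (0.528). It also ended with array weights (0.0511), arrays centred on their medians (0.0506), an intensity trend (0.0509) and repeated quantile normalization (0.0509), so that 14 of the alternatives ended it.

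Among the 10 protein-coding genes nearest to Cpa1 in gene order on chromosome 4, a choice made after the Cpa1 value was known, 6 were measured. Cpa4, the nearest measured carboxypeptidase, differed by -0.01 ± 0.08 (SE, limma adjusted p = 0.969), and Cep41, the next gene on the other side, by 0.04 ± 0.11 (SE, limma adjusted p = 0.916). Tmem209 rose by 0.32 ± 0.07 (SE, limma adjusted p = 0.0149), and the imprinted gene Mest fell by 0.51 ± 0.13 (SE, limma adjusted p = 0.0483). Mest lost its call without any 1 of the I3C arrays or without vehicle 2, 3 or 4, with adjusted p between 0.0779 and 0.117, and also with array weights (0.0603) and with arrays centred on their medians (0.0656). Copg2 differed by -0.25 ± 0.09 (SE, limma adjusted p = 0.158) and Tsga13 by -0.10 ± 0.08 (SE, limma adjusted p = 0.657), so the 6 differences ran from -0.51 to 0.32. With the GAPDH covariate both calls ended, at an adjusted p of 0.351 for Tmem209 and 0.292 for Mest.

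Whether the other enzymes followed Cpa1 from array to array was asked within the groups, by the deviation of each array from its group mean over 10 arrays. The groups are apart in Cpa1, so no pooled correlation is given. The 6 comparisons gave Pearson's r of 0.65 for Cpb1, 0.50 for Ctrb1, 0.38 for Cel, 0.19 for Pnlip, 0.09 for Prss1 and -0.50 for Cela1. None passed a two-sided permutation test with arrays shuffled within groups. Cpb1 had p = 0.101 and 0.446 after adjustment over the 6, Ctrb1 p = 0.149 (adjusted 0.446), Cela1 p = 0.258 (adjusted 0.505), Cel p = 0.336 (adjusted 0.505), Pnlip p = 0.626 (adjusted 0.752) and Prss1 p = 0.789 (adjusted 0.789), each by permutation.

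Spearman's rho was 0.61 for Cpb1 (permutation p = 0.133, adjusted 0.474), 0.50 for Ctrb1 (permutation p = 0.158, adjusted 0.474) and -0.42 for Cela1 (permutation p = 0.327, adjusted 0.554). For Cel it was 0.35 (permutation p = 0.37, adjusted 0.554), for Pnlip 0.27 (permutation p = 0.476, adjusted 0.571) and for Prss1 -0.06 (permutation p = 0.893, adjusted 0.893). Without I3C 2 and vehicle 2, the arrays farthest from the median Cpa1 deviation, Pearson's r was 0.61 for Cpb1, 0.55 for Cel, 0.09 for Prss1, 0.09 for Ctrb1, -0.15 for Cela1 and -0.58 for Pnlip. The r of Ctrb1 and Cela1 thus rests largely on those 2 arrays, and that of Pnlip changed sign without them, from 0.19 to -0.58. I3C 1 deviated in Cpa1 almost as much as vehicle 2 (-0.578 against -0.579), so the choice of arrays was a close one.

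The Cpb1 deviations can be read array by array. In dosed livers I3C 3 and 4 were above their group mean in both genes (Cpa1 by 0.55 and 0.73, Cpb1 by 0.22 and 0.36), and I3C 1 and 2 were below it in both (Cpa1 by -0.58 and -0.73, Cpb1 by -0.16 and -0.21). I3C 5 was above it by 0.03 in Cpa1 and differed from it by -0.20 in Cpb1. In vehicle livers 2 and 3 were below the mean in both genes and 5 was above it in both, whereas 1 and 4, the highest in Cpa1, were below the mean in Cpb1. The r of Cpb1 thus came almost wholly from the I3C arrays and not from the vehicle arrays, where Cpa1 was brightest. An r at least as high as that of Cpb1 was reached by 1.04% of the other 14216 genes, and the share was 3.61% for Ctrb1, 8.56% for Cel, 23.8% for Pnlip and 94.8% for Cela1. Arrays share RNA quality and normalization, so genes are not independent in this ranking.

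**Figure D3:**
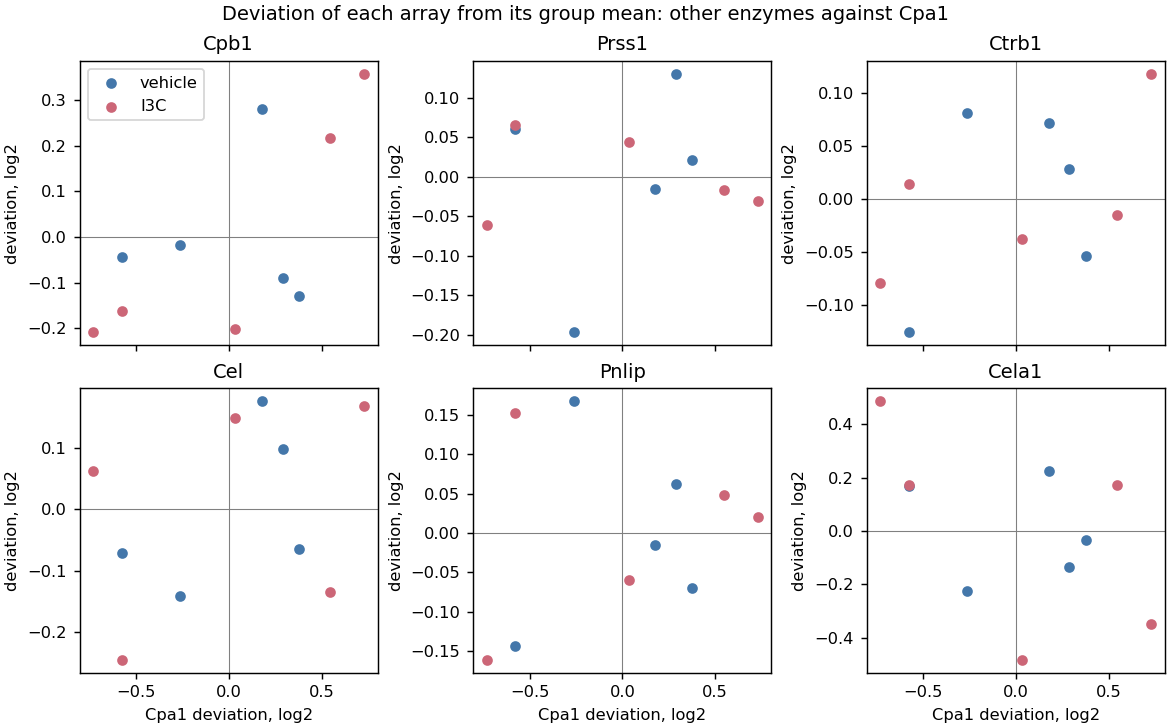
Deviation of each array from its group mean (log2) for 6 enzymes, one per panel, against that of Cpa1; blue points are the 5 vehicle and red points the 5 I3C arrays. Cpb1 had the highest r, at 0.65 over the 10 arrays, which did not pass the permutation test (adjusted p = 0.446) and came mainly from the I3C points. The vertical scales differ between panels.

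The 5 genes most like Cpa1 by this within-group r over 10 arrays were RGD1562890 (0.95), LOC102549303 (0.94), Tsga10 (0.93), Cdh12 (0.91) and Trpm8 (0.88). None of them is a digestive enzyme by its annotation. They were picked as the highest of 14216 values of r over only 10 arrays, so nothing is read from the size of r or from their annotation. All 5 lay below the 41st percentile of probe sets, and their differences between I3C and vehicle ran from -0.07 to 0.07.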

How the data were processed

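Liver RNA of 10 samples, 5 per group, was measured on rat 3′ expression arrays. The table deposited by the authors holds log2 expression, computed by RMA per the submitters' processing notes, which name no version. RMA equalizes array distributions and can understate large folds. Array medians lay between 6.21 and 6.29, and 57 control probe sets served only for quality. No detection calls were used. Probe sets were named by the platform annotation of the array, with symbols updated by Entrez ID from RefSeq (GRCr8), and a gene is its brightest probe set. A single gene was named for 20826 of 31042 probe sets, several for 436 and none for 9780. Of 153 listed symbols 126 were measured, 2 of them through an older symbol. limma 3.58.1 in R 4.3.3 (lmFit, eBayes without trend, two-sided) was fitted to all 10 arrays and tested on simulated data. Correlations used 100000 within-group permutations. The number of arrays limits the precision. Members and lists were chosen with earlier results of these data known, as was the rule for named genes: all members, up to 3 passing genes of each list by size or otherwise the 2 brightest, and the 5 genes most like Cpa1. The gene neighbours and promoter motifs were added later. Alternatives were an intensity trend in the variance, replicate numbers as blocks, removal of dim probe sets, centring on array medians, repeated quantile normalization, array weights, averaging a gene's probe sets, the GAPDH covariate, and leaving out each array.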

Additional observations from a re-analysis of the deposited data

Results flagged for a closer look

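In 80 groups of 5 values, 2 for each gene tested here, 7 held an array far from the others, where chance flags about 1 group in 20, and 6 of the 7 were vehicle 5. Among the digestive enzymes, Cpb1 read 7.16 in vehicle 5 and 6.75 to 6.86 in the other vehicle arrays. Ctrl read 6.69 there against 6.22 to 6.34, Tff3 7.89 against 7.34 to 7.41, and Gata4 8.66 against 7.93 to 8.05. Vehicle 5 was low in Nr5a2, at 9.25 against 9.61 to 9.74, and in Aadac, at 10.88 against 11.36 to 11.46. The seventh was I3C 4 in Fabp2, at 6.97 against 7.20 to 7.29 in the other I3C arrays.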

How the results depend on the processing

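The Cpa1 difference stayed between -2.29 and -1.92 under all 17 alternatives, and the differences of Cpb1 (-0.39 to -0.20), Cela1 (0.37 to 0.78), Cel (-0.24 to -0.08), Prss1 (-0.10 to -0.01) and Pnlip (0.07 to 0.15) kept their sign, in each alternative that kept them, while Ctrb1 ran from -0.03 to 0.05. No further pancreatic digestive enzyme passed under any of the 17 alternatives, and their median difference was 0.10 with the GAPDH covariate and -0.10 without dim probe sets, where 2 genes remained. Of 14217 genes 914 changed, but 228 with the GAPDH covariate, 1343 with array weights and 651 to 1243 with 1 array left out. With the replicate number as a block 647 genes changed, 2 acinar transcription factors passed, and the limma adjusted p was 0.0595 for Aadac, 0.0725 for Tmem209 and 0.0616 for Pnpla2. Same-numbered samples correlated at -0.28 to 0.22 in their deviations. The I3C sample most like vehicle 2 and the one most like vehicle 3 had the same number, while for vehicle 1, 4 and 5 it had another. The labels do not say whether the numbers pair samples, and so few correlations cannot decide it. The adjusted p of the correlations with Cpa1 was never below 0.244; r turned negative for Prss1 with Spearman's rho (-0.055), and with 1 array left out it ran from -0.12 to 0.23 for Prss1 and from -0.13 to 0.51 for Pnlip. With the GAPDH covariate the sign turned for Apoa4 (-0.11), Cfd (-0.22), Ctrl (0.11), Cuzd1 (0.054), Epcam (-0.011), Gata4 (0.20), Ins1 (-0.083), Tff3 (0.15) and Ttr (0.002), and with array weights for Aqp12a (-0.007) and Tff1 (-0.001), all of which were not called in either fit. Leaving out 1 array gave -0.07 to 0.14 for Apoa4, -0.033 to 0.032 for Aqp12a, -0.05 to 0.11 for Cfd, -0.11 to 0.03 for Ctrl, -0.056 to 0.003 for Cuzd1, -0.021 to 0.14 for Ins1 and -0.068 to 0.09 for Tff1. The causes were not tested. Signals near the dim end of the array leave small changes of Prss1, Ctrb1 and the dim further pancreatic enzymes undetectable.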
